A study of Mus musculus with 20 samples.

Results

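Aggregates of a mouse line carrying a doxycycline-inducible Prdm14 transgene were compared with aggregates of its parental line after 1 day with doxycycline, on 2 microarrays per line. These are 4 of the 20 arrays of a study of the transcription factors Blimp1, Prdm14 and Tfap2c, which asks which genes each factor alters when germ cells are made from epiblast-like cells (EpiLCs). The 4 arrays were taken by their labels, and Y-linked genes were left out because they already differed between the lines before doxycycline. Both lines are labelled male, of strain C57BL/6;129, and carry Blimp1-mVenus and stella-ECFP reporters and the activator rtTA at Rosa26. The Prdm14 line (clone #7-109) carries in addition a piggyBac vector with 3xFLAG-Prdm14 under a tetOx8-mCMV promoter, followed by IRES-beta geo. Embryonic stem cells kept in 2i and LIF were differentiated for 36 h into EpiLCs, which resemble the epiblast shortly after implantation. The cells were then aggregated at 2000 per well in GK15 medium with 1.5 μg/ml doxycycline and collected whole after 24 h. Parental aggregates received doxycycline too, and no aggregates without it were analysed here. EpiLCs of the same lines, 2 arrays each, give the state before doxycycline. Changes said below to come with aggregation are those from EpiLCs to day 1. In them aggregation, medium, time and doxycycline cannot be told apart. Aggregates of a Blimp1 line (clone #2-4), a Tfap2c line (clone #8-2) and a line with all 3 factors (clone #3-3), treated the same way, are used below for single genes.

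PRDM14 is a zinc-finger protein of the PR domain family. In mouse it is needed for primordial germ cells to form and for embryonic stem cells to hold the naive state. It is known to act with the co-repressor CBFA2T2 and with Polycomb repressive complex 2, and to hold down FGF signalling and the de novo DNA methyltransferases. In the embryo, BMP and WNT signals switch on Blimp1 and Prdm14 in a few epiblast cells, which then regain pluripotency genes, express Tfap2c and the germ cell marker stella (Dppa3), and silence somatic genes.

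The Prdm14 line is 1 clone, so the factor and the clone cannot be told apart. The array has 1 probe set for Prdm14, which read 3.59 and 3.67 (log2) in parental aggregates and 3.21 and 3.80 in the Prdm14 line. These readings overlap and lie below 3.95, the level under which a value was treated here as close to background. The difference of −0.13 (standard error, SE, 1.15, limma adjusted p = 0.959) therefore checks neither the transgene nor the endogenous gene. Array medians lay between 4.59 and 4.86 across all 20 arrays, and replicate arrays of a group correlated at Pearson r of 0.966 to 0.976 over all probe sets. The 2 arrays per group limit the precision. The series text calls them biological duplicates but does not say whether they came from separate cultures. Each p-value rests on the spread between duplicates pooled over the 10 groups of the 20 arrays. That spread does not cover differences between clones.

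Before doxycycline the 2 lines were close to each other. Of 14004 genes tested, 2 differed between their EpiLCs (0.0143%), counting a gene as called when its adjusted p was under 0.05 and its log2 difference was at least 1. An unadjusted p under 0.05 was reached by 816 genes. Without parental EpiLC replicate 1 there were 11 higher calls in place of 0, and without Prdm14-line EpiLC replicate 2 there were 2 higher and 3 lower. One of the 2 was Slc38a4, an imprinted amino acid transporter gene, which read 9.36 and 9.27 in parental and 7.84 and 7.86 in Prdm14-line EpiLCs (difference −1.47). The other was Ufsp2, a protease gene of the UFM1 pathway, at 7.86 and 7.72 against 6.69 and 6.74 (difference −1.08). Neither passed the size limit on day 1, with differences of −0.94 and −0.89. The median difference over all genes was −0.02 in EpiLCs and −0.04 on day 1, and no chromosome outside the Y stood apart, with medians over 20 chromosomes of −0.04 to 0.0 in EpiLCs and −0.09 to −0.01 on day 1. On the Y chromosome 6 genes were tested and 3 were called on day 1. The means of Eif2s3y were 9.49 in parental and 4.61 in Prdm14-line EpiLCs, and 9.27 and 2.28 on day 1. Those of Uty were 8.23 and 4.43 in EpiLCs and 8.57 and 4.36 on day 1. In the Prdm14 line these 2 Y-linked genes thus read near or below the background level on both days, which goes against its male label, and the cause was not tested.

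On day 1, 305 genes were higher (2.18% of those tested) and 446 were lower (3.18%) in the Prdm14 line. The called differences were mostly moderate, with a median size of 1.43 in the higher and 1.42 in the lower genes, and 63 higher and 95 lower genes differed by at least 2. Of the 305 higher genes 272 had differed by less than 0.5 in either direction in EpiLCs, and so had 409 of the 446 lower genes. Tested directly, the difference between the lines grew upward from EpiLCs to day 1 in 272 genes (1.94%) and downward in 364 (2.6%). For 76 higher genes the parental mean, and for 94 lower genes the Prdm14-line mean, lay below 3.95. Sizes of such differences are approximate. Whole aggregates were measured, so fewer cells of a type and less RNA per cell cannot be told apart.

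**Figure D1:**
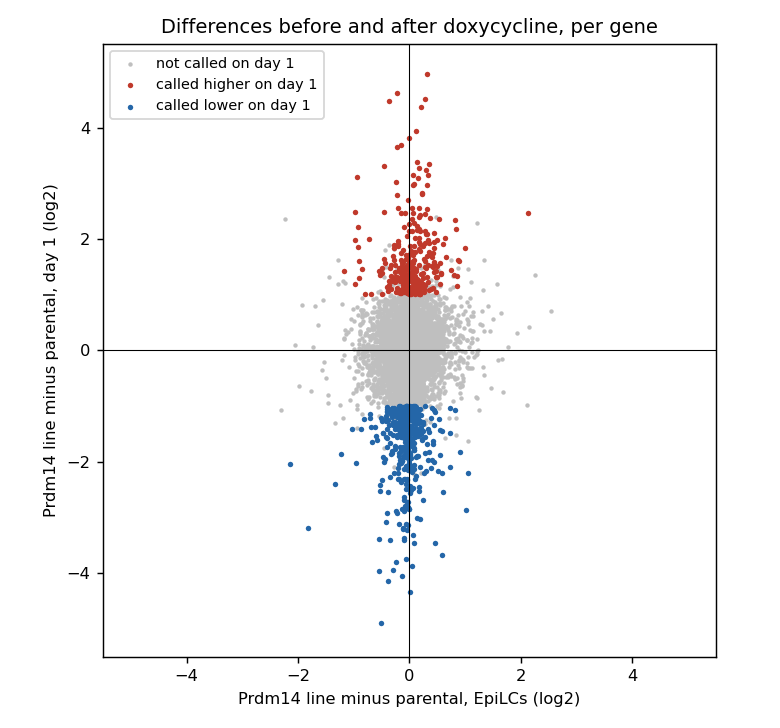
Each point is 1 of the 14004 tested genes, with the log2 difference between the Prdm14 and parental lines in EpiLCs on the horizontal axis and on day 1 on the vertical axis. The 305 genes called higher (red) and the 446 called lower (blue) on day 1 lie mostly near 0 on the horizontal axis.

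The largest increase was that of Epas1, which encodes the hypoxia-inducible factor subunit HIF-2α. It read 5.56 and 5.33 in parental and 10.36 and 10.46 in Prdm14-line aggregates, a difference of 4.97 (SE 0.15, adjusted p = 9.6e-10). Its EpiLC means were 8.38 and 8.69, so it fell with aggregation in the parental line (by 2.93) and rose in the Prdm14 line (by 1.72). The same opposed course was seen for Nr0b1, which encodes the orphan nuclear receptor DAX1 of naive stem cells. Nr0b1 read 6.08 and 6.30 against 10.59 and 10.54 on day 1, from EpiLC means of 7.72 and 7.94 (day 1 difference 4.38, SE 0.17, adjusted p = 7.41e-09). Tcf15, a helix-loop-helix gene of epiblast cells leaving the naive state, stood at 6.20 and 6.53 against 10.24 and 10.12, from 8.56 and 8.55 in EpiLCs. Dppa3 (stella), which protects the maternal genome from demethylation in the zygote, read 6.23 and 5.97 against 9.67 and 9.82, from 7.31 and 7.09. In all 4 genes the day 1 groups were far apart, while the EpiLC means of the lines differed by 0.32 or less.

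Other genes rose in the Prdm14 line without a called decrease in the parental line. Tfap2c, an AP-2 factor gene of germ cell formation, read 6.38 and 6.29 in parental and 10.70 and 10.91 in Prdm14-line aggregates, a difference of 4.47 (SE 0.13, adjusted p = 9.6e-10). Its EpiLC means were 5.69 and 5.31. Gprc5a, an orphan receptor gene that retinoic acid can induce, read 3.74 and 3.93 against 7.77 and 7.76. It had been near background in both lines as EpiLCs, at means of 1.94 and 2.06, and rose in both. Id4, an inhibitor of helix-loop-helix factors, stood at 5.12 and 4.93 against 8.07 and 8.26. Arid5b, which encodes a DNA-binding partner of a histone demethylase, stood at 6.25 and 5.82 against 9.29 and 9.27. All 3 probe sets of Id4 were higher by at least 2.35, while the 5 probe sets of Arid5b ranged from 0.05 to 3.25.

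The other genes among the 15 largest increases were Tcl1, Lrrc31, Bnc2, Lrrc34, Gpx6, Ndrg1 and Cnpy1, with differences of 3.27 to 4.63. Tcl1, a co-activator of the kinase AKT and a naive pluripotency gene, read 3.06 and 3.08 against 7.78 and 7.61. Parental means of Tcl1, Lrrc31, Gprc5a, Lrrc34, Gpx6 and Cnpy1 lay below 3.95. Lrrc31 shows how much this matters, since its difference of 4.51 became 1.31 when values under 3.95 were raised to that level. The parental readings of Gpx6, 2.27 and 4.79, were far from each other, and so were those of Cnpy1, 4.01 and 2.58. Even so, both Prdm14-line arrays exceeded both parental arrays in each of these genes.

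Among the decreases, the kinase gene Pim2 combined a high level with a large difference. It read 11.99 and 11.96 in parental and 7.67 and 7.59 in Prdm14-line aggregates, a difference of −4.35 (SE 0.10, adjusted p = 2.24e-10). It had stood at means of 11.48 and 11.49 in EpiLCs, so it fell by 3.86 in the Prdm14 line. Podxl, which encodes the sialomucin podocalyxin of the apical cell surface, read 8.92 and 8.78 against 5.09 and 4.87 (difference −3.87, adjusted p = 9.6e-10), and a weaker probe set for it differed by −0.91. Lzts1, a leucine zipper gene, stood at 7.74 and 7.38 against 3.18 and 3.66. Rtn4rl1, a gene of the Nogo receptor family, stood at 7.26 and 7.13 against 3.92 and 3.56. These 4 genes fell from their own EpiLC level in the Prdm14 line and did not change by the size limit in the parental line.

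A further set rose with aggregation in the parental line and was low on day 1 in the Prdm14 line. Nt5e, which encodes the ectonucleotidase CD73, read 8.62 and 7.98 against 3.70 and 3.10 (difference −4.90, SE 0.28, adjusted p = 1.6e-07), from EpiLC means of 5.78 and 5.27. Its weaker probe sets differed by −0.87 and −1.42, so the size rests on 1 probe set. Hs6st2, a heparan sulfate 6-O-sulfotransferase gene, read 9.90 and 9.52 against 5.76 and 5.55, from 8.48 and 8.35. Cxcl12, the chemokine that guides migrating germ cells, read 8.94 and 9.17 against 5.46 and 4.78, and another of its probe sets gave −3.70. Both rose in the parental line, by 1.23 and 1.36, and fell in the Prdm14 line, by 2.70 and 2.29.

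Has2, the main hyaluronan synthase gene, stood at 7.47 and 7.21 against 3.47 and 3.72, and its other probe set differed by −5.21. Fst encodes follistatin, which binds activins, and stood at 9.80 and 9.23 against 6.14 and 6.07. Pcdh8, a protocadherin gene of the paraxial mesoderm, rose by 3.14 with aggregation in the parental line and reached 6.84 and 7.09, against 3.64 and 3.37 in the Prdm14 line. The readings of the 2 lines did not overlap in any of these genes. Efemp1, Pdgfrl, Wnt8a, Speg and Nefm complete the 15 largest decreases, with differences of −3.96 to −3.39. Wnt8a had Prdm14-line readings of 1.61 and 3.35, and its difference carried an SE of 0.47. Prdm14-line means of Nt5e, Lzts1, Efemp1, Pdgfrl, Has2, Wnt8a, Pcdh8 and Rtn4rl1 lay below 3.95.

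**Figure D2:**
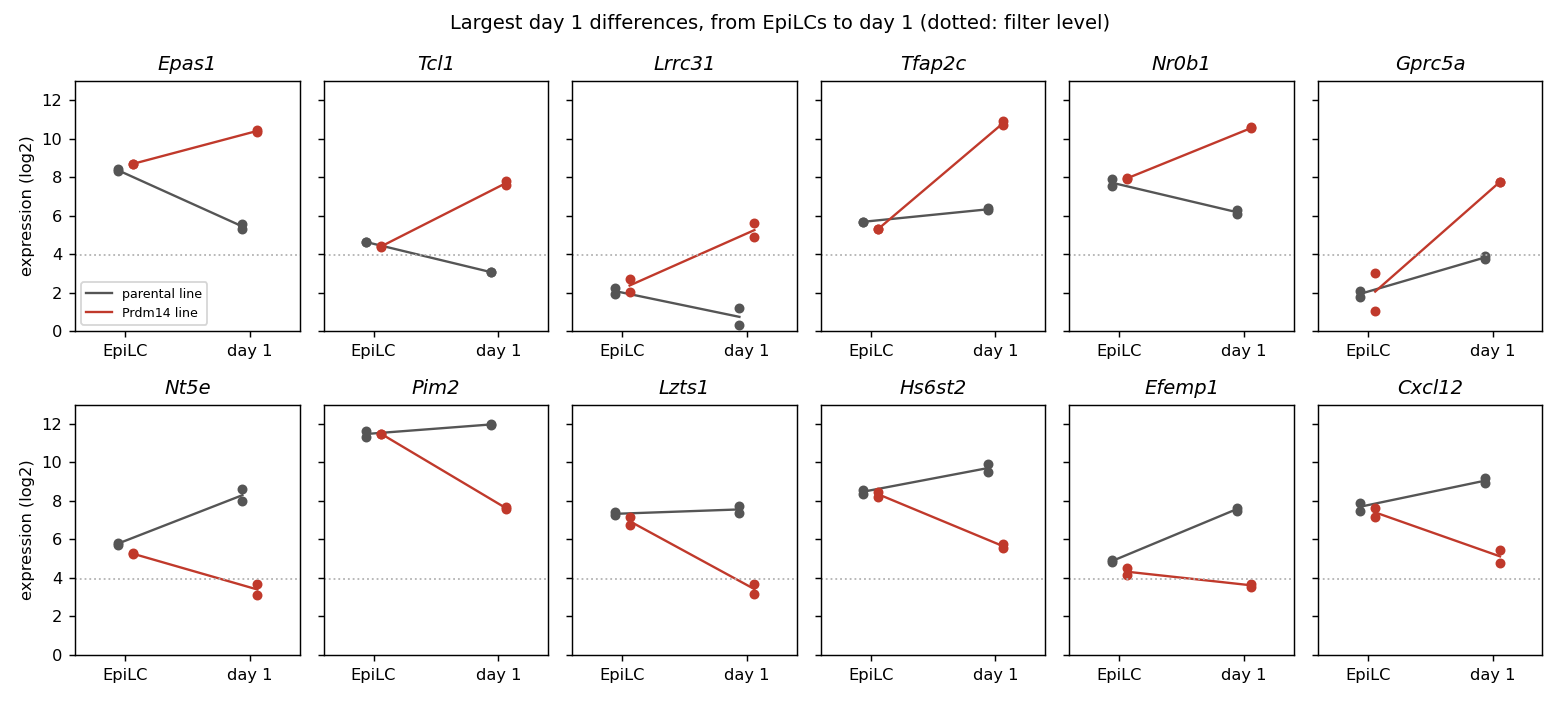
Log2 values of the 6 genes with the largest increases (top) and of the 6 with the largest decreases (bottom) in EpiLCs and on day 1. Points are single arrays, lines join group means, grey is the parental and red the Prdm14 line, and the dotted line marks 3.95. The lines start at nearly the same level in EpiLCs and part by day 1.

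Known gene groups were then read against these shares of all genes. The lists were chosen with earlier results of these data known, so their shares are a description and not an independent test. The 31 lists hold 589 genes, of which 507 were tested, 61 were called higher and 48 lower, and 642 called genes are in no list. Lists of naive pluripotency, early germ cell and core pluripotency genes had the highest shares of higher members, and the list of the primed epiblast had the highest share of lower members. The share of called members in each list is plotted beside the shares over all tested genes.

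**Figure D3:**
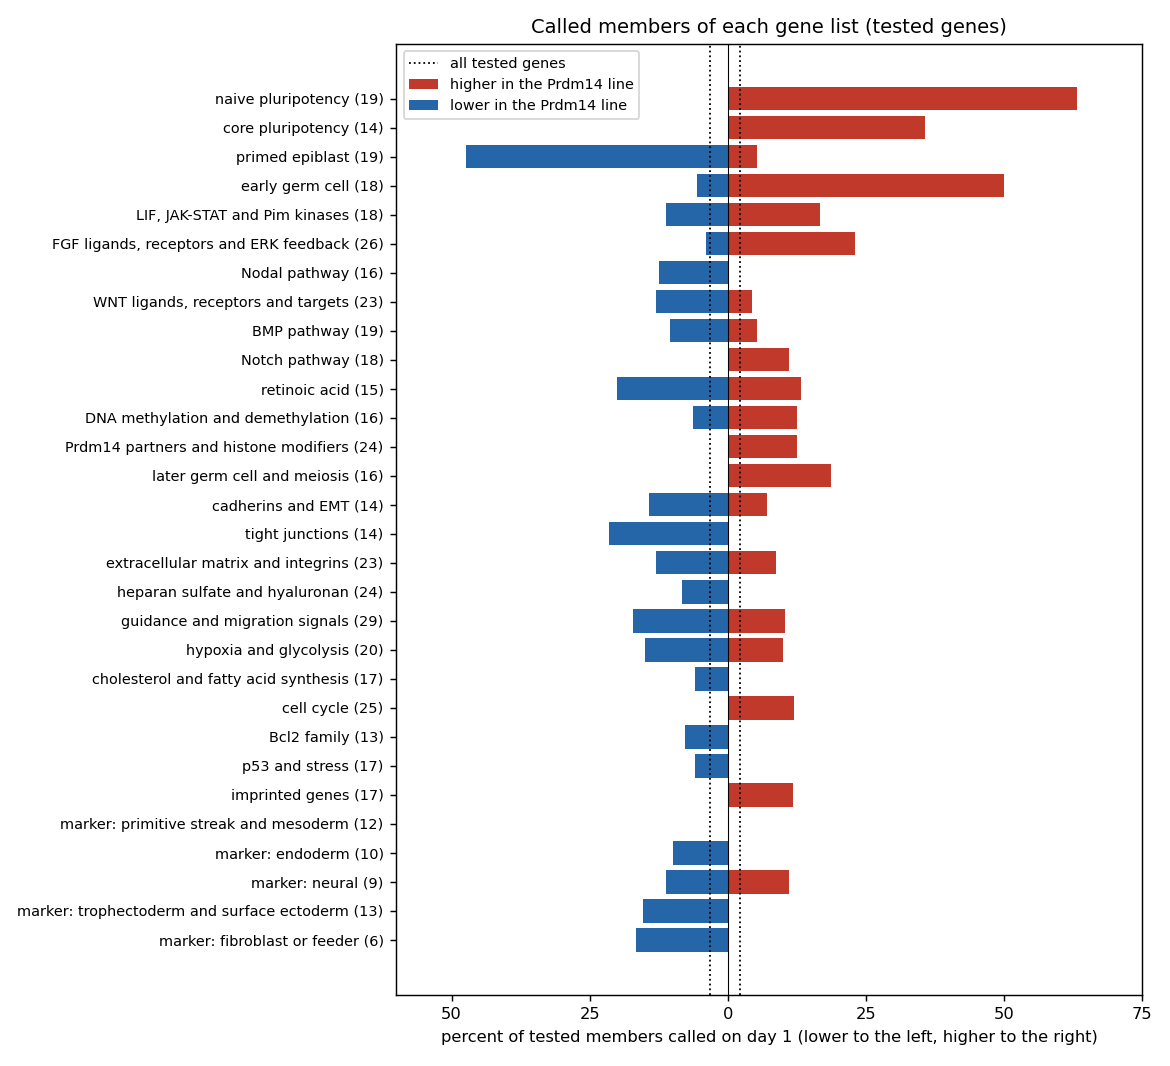
Percent of the tested members of each gene list (number in brackets) that were called on day 1, higher in the Prdm14 line to the right (red) and lower to the left (blue). Dotted lines mark 2.18% and 3.18%, the shares over all tested genes. The list of 2-cell-like markers, with 1 tested member, is not drawn.

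Naive pluripotency genes, which keep embryonic stem cells in the pre-implantation state, were higher as a group. Of 20 listed genes 19 were tested, 12 were called higher and none lower, and the median difference was 1.43. In EpiLCs the median over these genes was 0.11. After Tcl1 and Nr0b1 the largest difference was that of Fbxo15, an F-box gene, at 6.75 and 6.78 against 9.75 and 9.71. Esrrb, an orphan nuclear receptor gene, read 6.18 and 6.39 against 8.74 and 8.94 (difference 2.56, adjusted p = 7.8e-08), and its other probe sets gave 4.70 and 1.34. Tfcp2l1, a self-renewal factor downstream of LIF, read 3.93 and 4.55 against 7.01 and 7.11. Mybl2, Zfp42 (the marker REX1), Rex2, Pecam1 and Klf5 were higher by 1.38 to 2.02, with Rex2 not called without parental replicate 2. Among the Krüppel-like factors, Klf2 rose in both lines with aggregation, from means of 6.30 and 6.79 in EpiLCs to 9.84 and 9.52 against 11.75 and 11.59. Klf4 read 5.89 and 5.39 against 7.88 and 6.88, and its call (adjusted p = 0.0297) was lost without Prdm14-line replicate 1 or without either parental replicate. Dppa2, Sox15, Tet2 and Dppa4 had differences of 0.56 to 0.95, and Nr5a2, Tbx3 and Gbx2 of −0.09 to 0.16.

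Of 14 core pluripotency genes 5 were higher and none lower (median 0.38). Sox2 encodes a partner of OCT4 and read 10.63 and 10.78 against 12.46 and 12.53 (difference 1.79, SE 0.09, adjusted p = 4.99e-08). Zfp296, Gdf3, Jarid2 and Fgf4 were higher by 2.14, 1.23, 1.04 and 1.02, of which the last was lost without parental replicate 1. Pou5f1 (OCT4) differed by 0.01, and Nanog by 0.67. Differences of the other members ran from −0.42 for L1td1 to 0.90 for Dppa5a.

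Early germ cell genes, which mark or specify primordial germ cells, were higher in 9 of 18 tested members, with 1 lower and a median of 1.01. Prdm1, the gene of Blimp1, read 4.90 and 5.01 against 7.23 and 7.39 (difference 2.36, SE 0.13, adjusted p = 1.22e-07). The interferon-induced membrane protein genes Ifitm3, Ifitm1 and Ifitm2, of which Ifitm3 is fragilis, were higher by 3.10, 1.88 and 1.04. Ifitm3 stood at 8.30 and 8.12 in parental and 11.25 and 11.37 in Prdm14-line aggregates. Hesx1, a homeobox gene, stood at 3.86 and 3.93 against 6.94 and 6.83, and Lrrc34 read 3.45 on both parental and 6.84 on both Prdm14-line arrays. Kit, the receptor for KIT ligand on migrating germ cells, was higher by 1.25 at its brightest probe set and by 0.03 at the other, so its call depends on the probe set. Pdpn, the podoplanin gene, went the other way, from 10.43 and 10.39 down to 7.91 and 7.79 (difference −2.56, adjusted p = 3.23e-10). Elavl2 and Dnd1, RNA-binding protein genes, differed by 0.98 and 0.82 and did not reach the size limit.

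Of 16 later germ cell and meiosis genes 3 were higher and none lower (median 0.40). Morc1, a transposon-silencing gene of the male germ line, stood at EpiLC means of 8.16 and 8.34 and on day 1 at 4.30 and 4.53 against 7.04 and 6.58. Hormad1, a meiotic chromosome axis gene, read 4.64 and 4.82 against 6.10 and 6.59, from 8.36 and 8.08, and Tex19.1, a gene of transposon control, was higher by 1.14. Morc1 and Hormad1 fell from EpiLCs to day 1 in both lines, by 3.75 and 3.63 in the parental and by 1.53 and 1.74 in the Prdm14 line. Ddx4 and Dazl, which mark later germ cells, differed by 0.15 and 0.62.

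**Figure D4:**
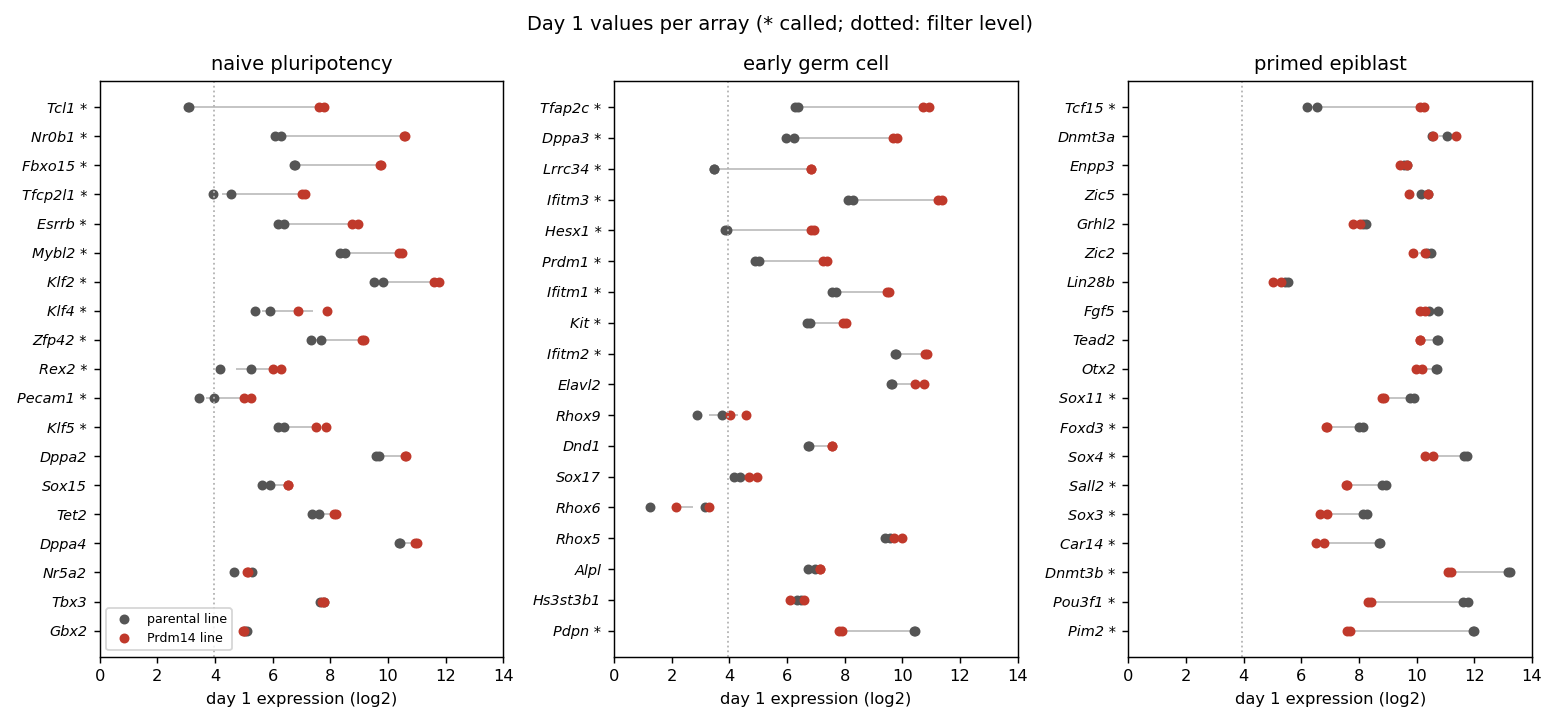
Day 1 log2 values of the tested members of 3 lists, with parental arrays in grey, Prdm14-line arrays in red and a line joining the group means. An asterisk marks a called gene and the dotted line 3.95. Most naive and early germ cell genes lie to the right in the Prdm14 line, while Pim2, Pou3f1 and Dnmt3b lead the primed epiblast genes to the left.

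Genes of the primed epiblast, the state EpiLCs resemble, were lower in 9 of 19 tested members and higher in 1, with a median of −0.61. Pou3f1 (OCT6), a POU factor of the primed state, read 11.59 and 11.77 against 8.43 and 8.31 (difference −3.31, SE 0.11, adjusted p = 2.12e-09), and −4.36 at its other probe set. Car14, a carbonic anhydrase gene, was lower by 2.06 (8.72 and 8.69 against 6.80 and 6.50). The transcription factor genes Sox3, Sall2, Sox4, Foxd3 and Sox11 were lower by 1.01 to 1.45, with Sox11 not called without Prdm14-line replicate 2 or parental replicate 1. With the mean of all probe sets Sox3 and Sox4 differed by −0.68 (adjusted p = 0.0731) and −0.73 and were not called, and another probe set of Sox3 gave 0.10. Tcf15 was the 1 member that was higher. Otx2, Fgf5 and Lin28b differed by −0.61, −0.39 and −0.35, and Dnmt3a by 0.18. In EpiLCs the members had differed by −0.39 to 0.15, and both lines read 12.09 and 12.15 at Pou3f1.

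Of 16 genes of DNA methylation and demethylation 2 were higher and 1 lower (median 0.17). The de novo methyltransferase gene Dnmt3b read 13.18 and 13.24 against 11.19 and 11.09 (difference −2.07, SE 0.10, adjusted p = 5.23e-08), and −2.64 at its other probe set. Dnmt3a, its relative, differed by 0.18, the cofactor gene Dnmt3l by −0.19, the maintenance methyltransferase Dnmt1 by −0.05, and Uhrf1, which brings DNMT1 to DNA, by 0.00. The demethylation enzymes Tet1 and Tet2 were at 0.96 and 0.69, under the size limit. Gadd45g and Gadd45a, stress genes also linked to demethylation, were higher by 1.77 and 1.13.

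The list of known PRDM14 partners and histone modifiers had 3 of 24 members higher, none lower and a median of 0.01. Cbfa2t2, the co-repressor that binds PRDM14, read 8.95 and 8.94 against 10.19 and 10.13 (difference 1.22, SE 0.08, adjusted p = 6e-07). Its relative Runx1t1 read 8.87 and 8.60 against 10.42 and 10.21, after rising in both lines from EpiLC means of 6.91 and 6.80. The third was Jarid2, a Polycomb accessory subunit, whose call was lost without Prdm14-line replicate 1 or parental replicate 2. The core Polycomb subunits Ezh2, Eed and Suz12 had differences of 0.01, 0.20 and 0.14, and the methyltransferases Ehmt2 and Ehmt1 of 0.15 and −0.17. The list as a whole stayed near the median of all genes.

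Of 18 LIF, JAK-STAT and Pim kinase genes 3 were higher, 2 lower and 13 not called (median 0.07), with the receptor genes Lifr and Il6st higher and the feedback gene Socs3 lower. Lifr, the LIF receptor, read 7.45 and 7.13 against 9.75 and 9.57 (difference 2.37, SE 0.15, adjusted p = 2.68e-07), and its weaker probe sets gave 0.37 and 1.03. Its partner Il6st (gp130) read 7.43 and 7.28 against 8.92 and 8.91. Socs3, a feedback inhibitor of this receptor, read 5.20 and 5.24 against 2.46 and 2.16, below the background level in the Prdm14 line. The related receptor genes Osmr and Il6ra differed by 0.35 and −0.54, the feedback genes Socs2, Socs1 and Cish by 0.49, 0.10 and 0.07, and Stat3, the factor the receptor activates, by 0.07. The kinase Pim1 was higher by 1.33 and Pim2, above, lower by 4.35.

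Of 26 FGF and ERK genes 6 were higher and 1 lower (median 0.16). Among receptors, Fgfr2 read 6.23 and 6.22 against 7.54 and 7.81, and Fgfr1 read 8.38 and 8.28 against 7.25 and 7.05. Fgf4, the main FGF ligand of stem cells, was higher by 1.02 while Fgf5 differed by −0.39. The ERK feedback genes Dusp4 and Spry4 were higher by 2.43 and 1.26, and the response genes Egr1 and Myc by 1.39 and 1.36, whereas Dusp6, Spry2 and Etv5 differed by 0.09, −0.01 and 0.43. The other probe sets of Spry4 gave 0.18, 0.27 and 0.58, and its call was lost with the mean of all its probe sets (0.57). The call for Egr1 was lost when its difference had to exceed 0.5 in the test itself (adjusted p = 0.107).

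Of 16 Nodal pathway genes none was higher and 2 were lower (median −0.13). The ligand Nodal read 10.51 and 10.22 against 8.55 and 8.51 (difference −1.84, SE 0.14, adjusted p = 1.46e-06), having risen by 1.38 with aggregation in the parental line. Foxh1, the DNA-binding partner of its SMADs, read 9.60 and 9.44 against 7.80 and 7.71. The co-receptor Tdgf1 and the feedback inhibitors Lefty1 and Lefty2 differed by 0.06, 0.64 and 0.37. Of 19 BMP genes 1 was higher, Id4, and 2 were lower, Fst and the inhibitory SMAD gene Smad6, which read 5.47 and 5.35 against 2.55 and 2.68. The Prdm14-line readings of Smad6 thus lay below 3.95. The BMP response genes Id1, Id2 and Id3 differed by 0.25, 0.85 and 0.15. Of 23 WNT genes the transcription factor Lef1 was higher (7.38 and 7.47 against 9.52 and 9.68), and 3 were lower. These were the ligands Wnt8a and Wnt5b, the latter at 6.55 and 6.16 against 4.13 and 3.63, and Sp8, which rose in both lines but by 3.69 in the parental and 1.47 in the Prdm14 line. Axin2, a general WNT target, differed by −0.34.

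Of 18 Notch genes 2 were higher, the ligand Jag1 (6.55 and 6.11 against 8.04 and 8.08) and the receptor Notch1 by 1.12, and none was lower. The call for Notch1 was lost without Prdm14-line replicate 1 or parental replicate 2. Of 15 retinoic acid genes 2 were higher and 3 lower. The receptor genes Rarb and Rarg and the binding protein gene Crabp2 were lower by 2.08, 1.04 and 1.91, with Rarg not called without Prdm14-line replicate 1, and Crabp2 stood at 8.96 and 8.98 against 7.07 and 7.06. Rarb read 2.84 and 3.06 in the Prdm14 line, below 3.95, so the size of its difference is approximate. The retinoic acid synthesis genes Aldh1a2 and Aldh1a3 were called higher, from parental readings under 3.95. Aldh1a2 reached only 4.09 and 3.81 in the Prdm14 line, and Aldh1a3 4.43 and 4.92. With values raised to 3.95 they differed by 0.07 and 0.725 and were not called. Both calls were also lost without Prdm14-line replicate 2 or parental replicate 1, and that of Aldh1a2 without Prdm14-line replicate 1 as well. Medians of the BMP, WNT, Notch and retinoic acid lists were 0.09, −0.05, 0.01 and 0.06.

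The lists of cell adhesion and matrix genes each had more lower than higher members. The same direction held over all tested genes, with 3.18% lower and 2.18% higher. Of 14 tight junction genes 3 were lower and none higher (median −0.27). The claudin Cldn4 read 9.17 and 9.03 against 7.32 and 7.19 (difference −1.85, adjusted p = 5.23e-08), and Cldn6 and Marveld3 were lower by 1.17 and 1.14, the latter not called without Prdm14-line replicate 2. Of 14 cadherin and epithelial-mesenchymal transition genes Pcdh8 and Pcdh1 were lower and Cdh2 (N-cadherin) was higher by 1.13, while Cdh1 (E-cadherin) differed by −0.20. Among 23 matrix and integrin genes the laminin chain Lama5 read 7.67 and 7.66 against 5.29 and 5.42, and Col4a1 and Itga6 were lower by 1.73 and 1.10. In the same list the fibronectin gene Fn1 read 10.01 and 9.83 against 11.47 and 11.40, and the linker gene Nid1 was higher by 1.39. Of 24 heparan sulfate and hyaluronan genes Hs6st2 and Has2 were lower and none was higher, and the related enzymes Hs6st1 and Has3 differed by 0.72 and 0.27.

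Of 29 guidance and migration genes 3 were higher and 5 lower (median −0.07). The ligand Ntn1 (netrin 1) read 5.82 and 5.56 against 7.59 and 7.45, while its receptor Unc5b read 8.85 and 8.17 against 6.48 and 5.45. Sema6a, Plxnb2 and Slit3 were lower by 1.72, 1.53 and 1.35, and the ephrin receptor Epha2 was higher by 1.15. Cxcr4, the receptor for CXCL12, differed by −0.12, and the KIT ligand gene Kitl by 0.19.

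Of 20 hypoxia and glycolysis genes 2 were higher and 3 lower (median −0.03). Beside Epas1, the stress response gene Ndrg1 was higher by 3.31, at 5.29 and 4.47 against 8.05 and 8.33. The hexokinases Hk1 and Hk2 and the oxygen sensor Egln3 were lower by 1.58, 1.09 and 1.15. Hif1a, the relative of Epas1, differed by −0.05, and the hypoxia targets Vegfa, Slc2a1 and Car9 by 0.31, −0.14 and −0.18. Members that were not called ran from −0.985 for Ldha to 0.985 for P4ha1, both just under the size limit. Of 17 cholesterol and fatty acid synthesis genes the desaturase Scd2 was lower (12.09 and 12.05 against 10.51 and 10.63) and none was higher. Scd2 was the lowest of that list and Acly, at 0.02, the highest, and the median was −0.39.

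Of 25 cell cycle genes Ccnd3, Mycn and Cdk6 were higher by 1.20, 1.12 and 1.09, none was lower, and the median was −0.04. With the mean of all probe sets Ccnd3 and Cdk6 differed by 0.94 and 0.87 and were not called. Cyclins and replication genes such as Ccnb2, Cdk1, Mcm2 and Mki67 differed by between −0.10 and 0.09. Of 13 Bcl2 family genes the pro-apoptotic Bik was lower (7.21 and 7.08 against 5.54 and 5.42). Its probe sets were not of 1 mind, since another read 5.64 and 5.82 against 6.02 and 5.66 (difference 0.11). The weakest of them differed by −1.83. Of 17 p53 and stress genes Ddit4, an inhibitor of mTORC1, was lower by 1.29, and the median was −0.25. Of 17 imprinted genes Peg3 and Phlda2 were higher by 1.28 and 1.23, while the median was −0.33.

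Markers of other cell types an aggregate could hold gave 1 higher and 5 lower calls among the lists for 6 cell types. These lists had 12 streak or mesoderm, 10 endoderm, 9 neural, 13 trophectoderm and surface ectoderm, 6 fibroblast or feeder and 1 2-cell-like markers tested. Over all tested genes 2.18% were higher and 3.18% lower. No streak or mesoderm marker of 12 was called, and their summed level was 8.97 and 8.71 in parental and 8.88 and 8.89 in Prdm14-line aggregates. Such a sum is carried by the brightest members, and single members differed by −1.75 to 0.76. Evx1, Gsc and Cdx1 of this list were not tested, and T is not on the array. Of 10 endoderm markers Foxa2 was lower by 1.51, but its Prdm14-line readings of 3.02 and 3.10 lay below 3.95, and with values raised to that level the difference was −0.62 and not called. The endoderm markers had summed levels of 7.95 and 8.01 against 8.06 and 8.00. Of 9 neural markers Sox1 was lower by 2.53 and Lhx5 higher by 1.57, a call lost without Prdm14-line replicate 1 or 2 or without parental replicate 2. The Prdm14-line readings of Sox1, 3.20 and 2.86, lay below 3.95, so the size of its difference is approximate. The keratins Krt8 and Krt18 of simple epithelia were lower by 1.15 and 1.47, and the summed level of the 13 trophectoderm and surface ectoderm markers was 11.19 and 11.21 in parental and 10.08 and 10.12 in Prdm14-line aggregates. That sum is carried mostly by Krt18, at 10.45 and 10.47 in parental aggregates, and Krt8, at 9.19 and 9.17, while the other 11 members were not called and the median of the list was −0.21. Of 6 fibroblast or feeder markers the surface glycoprotein gene Thy1 was lower by 2.63, and their sum was 10.14 and 10.04 against 9.87 and 9.53. The keratin markers thus moved with the lower tight junction genes, and their part in those differences was not tested. No tested marker was at 0 on any of the 4 arrays, and 2 of 12 streak and 3 of 10 endoderm markers lay below 3.95 in both lines. Both lines kept high readings of the pluripotency gene Pou5f1, 12.50 and 12.48 against 12.51 and 12.48.

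The other inducible lines place single genes of the Prdm14 line, and each difference below was tested in the same fit. Against the Blimp1 line 914 genes were called (6.53% of those tested), against the Tfap2c line 817 (5.83%), and against the line with all 3 factors 144 (1.03%). Several of the largest day 1 differences also separated the Prdm14 line from the Blimp1 line. Tcf15 was higher in the Prdm14 line by 4.70 (adjusted p = 5.89e-10), Nr0b1 by 4.11 (1.14e-08) and Epas1 by 4.02 (5.32e-09). Pou3f1 was lower in it by 2.70, Dnmt3b by 1.84, Podxl by 3.95, Cxcl12 by 3.80 and Efemp1 by 4.06. Differences from the Blimp1 line were small or uncertain for some genes, with Pcdh8 at 0.47 (adjusted p = 0.0702), Has2 at −0.40 (0.196), Fgfr2 at 0.08 (0.716) and Gprc5a at −1.03 (0.237). Pcdh8 and Has2 read below 3.95 in the Prdm14 line, so their small differences say little about equal levels. Myc was higher than in the Blimp1 line by 3.97 (adjusted p = 5.89e-10), where it read 4.05 and 4.29, below the 6.84 and 6.73 of the parental line, and its difference from the parental line was 1.36. Nodal, lower than in the parental line, was higher than in the Blimp1 line by 1.04 (adjusted p = 0.000129), a call lost without Blimp1-line replicate 1 (0.85), and Ifitm1 was lower than in the Blimp1 line by 1.44 (5.39e-06).

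Against the line with all 3 factors, the germ cell genes Dppa3, Prdm1 and Hesx1 were lower in the Prdm14 line and the epiblast genes Dnmt3b, Pou3f1 and Foxd3 were higher. Dppa3 was lower by 1.72 (adjusted p = 0.00319), Prdm1 by 1.36 (9.64e-05) and Hesx1 by 1.67 (0.000929). The line with all 3 factors carries a Blimp1 (Prdm1) transgene, and whether the Prdm1 probe set reads it is not known here. Dnmt3b was higher in the Prdm14 line by 1.27 (2.81e-05), Pou3f1 by 1.57 (9.45e-06), Foxd3 by 1.82 (4.93e-06) and Sema6a by 2.72 (3.26e-06). Tcf15 was higher by 1.45 (8.35e-05) and Efemp1 lower by 2.02 (1.63e-05) in the Prdm14 line. For Nt5e, Hs6st2, Lrrc31 and Bnc2 the difference between these lines was 0.15, −0.11, −0.04 and 0.03, and none passed the test (adjusted p from 0.797 to 0.984). Nt5e read below 3.95 in the Prdm14 line, so its small difference says little about equal levels. Against the Tfap2c line, Epas1 was higher in the Prdm14 line by 5.24 and Nt5e lower by 4.79.

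**Figure D5:**
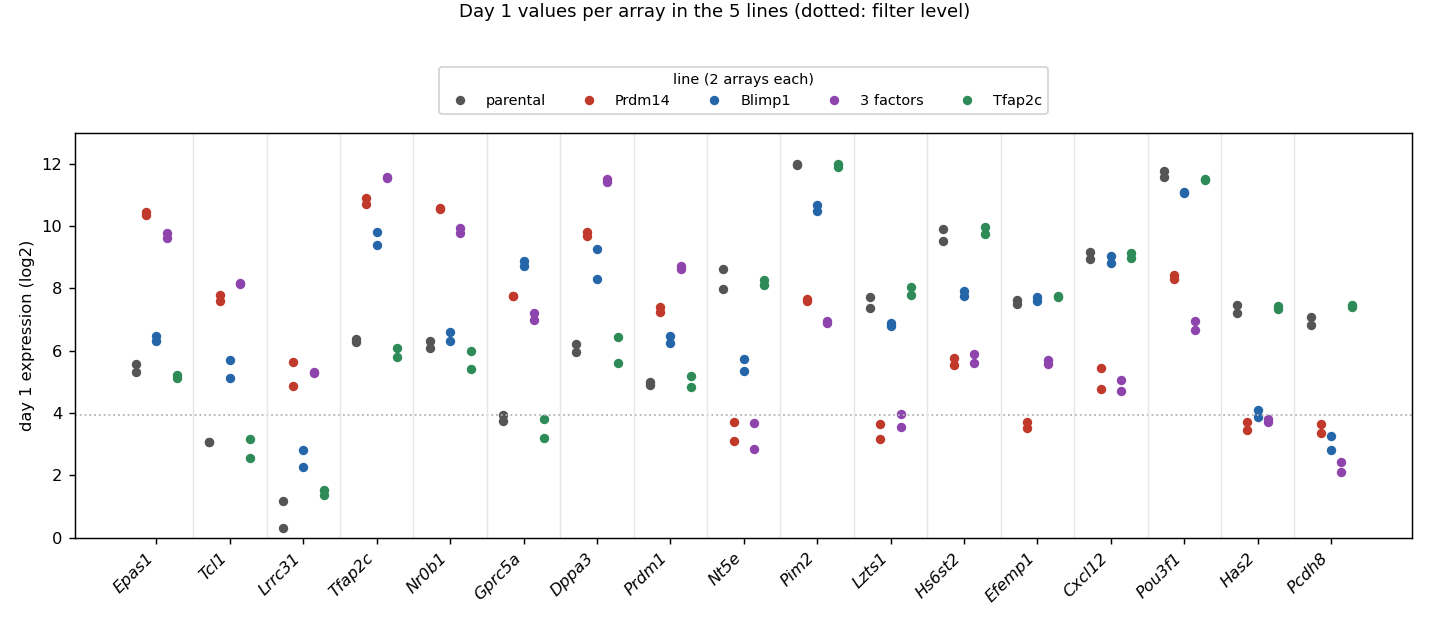
Day 1 log2 values of 17 genes on the 2 arrays of each of 5 lines, parental (grey), Prdm14 (red), Blimp1 (blue), 3-factor (purple) and Tfap2c (green). Epas1 and Nr0b1 are high in the Prdm14 and 3-factor lines, while Has2 and Pcdh8 are low in the Blimp1 line as well.

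Promoter windows were searched for the recognition sequence of PRDM14, GGTCTCTAA, known from binding studies in mouse embryonic stem cells, on both strands of the 250 bases before each RefSeq start (build GRCm38.p6). It was present in 79 of 32851 windows of all genes (0.24%) and in 30 of 14396 windows of tested genes (0.208%). None of 309 windows of genes called higher held it, and 5 of 485 windows of genes called lower did (1.03%). The windows searched cover 230 of the 305 higher and 341 of the 446 lower genes, and genes without a window were not searched. The 5 windows with the motif belong to 4 genes, with 2 of them at Fam111a, of which 1 is printed. The windows of these 4 genes are shown because they hold the motif, and the genes were picked for it after values were seen, so their values are a description. Each is printed in the direction of the gene and ends at the base before its start, with the motif or its reverse complement in capitals.
Fam111a: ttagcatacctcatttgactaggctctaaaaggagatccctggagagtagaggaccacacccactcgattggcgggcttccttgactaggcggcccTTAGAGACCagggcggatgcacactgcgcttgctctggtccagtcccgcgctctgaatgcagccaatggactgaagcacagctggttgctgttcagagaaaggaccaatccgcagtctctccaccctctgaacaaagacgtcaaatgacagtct
Tenm4: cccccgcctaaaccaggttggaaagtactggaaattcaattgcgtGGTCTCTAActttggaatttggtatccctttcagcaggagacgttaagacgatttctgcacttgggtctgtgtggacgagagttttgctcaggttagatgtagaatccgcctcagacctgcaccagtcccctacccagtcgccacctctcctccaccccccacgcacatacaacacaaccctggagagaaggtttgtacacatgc
Gm15417: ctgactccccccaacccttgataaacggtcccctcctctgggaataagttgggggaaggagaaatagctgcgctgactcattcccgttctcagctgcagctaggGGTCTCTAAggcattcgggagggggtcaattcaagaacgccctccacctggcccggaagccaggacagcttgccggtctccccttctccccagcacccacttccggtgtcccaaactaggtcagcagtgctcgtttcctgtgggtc
Nap1l5: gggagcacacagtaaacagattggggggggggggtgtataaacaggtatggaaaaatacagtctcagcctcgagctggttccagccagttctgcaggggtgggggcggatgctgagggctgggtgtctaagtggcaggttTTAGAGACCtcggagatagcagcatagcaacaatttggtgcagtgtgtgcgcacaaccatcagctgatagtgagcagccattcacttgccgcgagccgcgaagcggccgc

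The Fam111a window, chr19:12573260-12573509 (+ strand), holds the motif 146 to 154 bases before the start, in antisense. Fam111a, whose human counterpart is a serine protease gene, read 8.07 and 7.98 in parental and 5.18 and 5.26 in Prdm14-line aggregates, from EpiLC means of 8.38 and 8.35 (difference −2.81, SE 0.09, adjusted p = 1.1e-09). It was at a mean of 5.13 in the line with all 3 factors, and at 8.02 and 7.95 in the Blimp1 and Tfap2c lines. Fam111a was thus low in the 2 lines that carry Prdm14 and at the parental level in the others. The Tenm4 window, chr7:96211421-96211670 (+), holds the motif in sense 197 to 205 bases before the start, and this teneurin adhesion gene read 7.67 and 6.98 against 6.34 and 5.29. The Gm15417 window, chr3:89391614-89391863 (+), holds it in sense 138 to 146 bases before, and the gene read 6.05 and 5.95 against 4.65 and 4.81. The Nap1l5 window, chr6:58907127-58907376 (−), holds it in antisense 102 to 110 bases before, and this imprinted gene read 5.33 and 5.14 against 4.14 and 4.00. Means in the line with all 3 factors were 4.66, 4.73 and 3.86 for Tenm4, Gm15417 and Nap1l5. In the Blimp1 line they were 7.66, 5.80 and 5.44, and in the Tfap2c line 7.42, 6.06 and 5.24.

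In all, 28 tested genes had the motif in a window. Of these 4 were called lower (14.3%) and none higher, against 3.18% lower and 2.18% higher over all tested genes. A difference below 0 was seen in 24 (85.7%), against 55.0% of all tested genes. Some of the 24 were close to 0, such as Rpl35, Rab14, Kdm4c and Alg9 at −0.04 each, so the sign count is a description. The median difference of the 28 genes was −0.14, against −0.04 over all. For comparison, the AP-2 motif GCCNNNGGC was in 13.7% of all windows, 19.7% of those of tested genes, 59 of the 309 windows of genes called higher and 103 of the 485 windows of genes called lower. None of the 115 windows of the genes named under the list and size rules held the PRDM14 motif. These windows cover 86 genes, and named genes without a window, such as Epas1, Tfap2c and Pou3f1, were not searched. With the motif in 0.208% of the windows of tested genes, its absence from so few windows says little. A match of letters is not a binding site, and windows without a match say nothing of binding elsewhere.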

How the data were processed

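RNA of 20 samples was hybridised to 1-colour Affymetrix arrays from biotin-labelled cRNA, per the labels' protocols. The authors deposited processed log2 values, 1 for each probe set on each array, and these were used as they stand; normalization and summarisation of probes are steps that neither the labels nor the file headers describe. Base 2 was inferred from array maxima of 13.77 to 13.83. Platform annotation gave 1 gene for 34945 of 45101 probe sets, several for 932 and none listed for 9160, beside 64 controls; 34741 matched RefSeq (GRCm38.p6) by Entrez identifier.

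Each gene was represented by its brightest probe set over all arrays. Genes were tested when the highest group mean reached 3.95, the 40th percentile of all values, which kept 14010 of 18193 genes, 6 of them Y-linked and left out. A model of 10 group means over 20 arrays was fitted with limma 3.58.1 in R 4.3.3 (10 residual degrees of freedom, prior 1.79), and contrasts were adjusted by Benjamini-Hochberg over all genes. P-values are two-sided, and limma was tested on simulated data. Summed levels are log2 of the sum of a list's values on the linear scale. A permutation of 2 arrays against 2 cannot give a two-sided p below 0.333, so no such test was used. Tables and figures were made in Python 3.11.15 with pandas 2.3.3 and matplotlib 3.10.9.

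Named genes are the 15 largest called differences in each direction on day 1, called list members, Prdm14, Prdm1 and Tfap2c, and the 8 largest calls in EpiLCs and in the change from EpiLCs; list members that were not called, and the genes with the PRDM14 motif, were named after their values were seen. The comparison and the lists were chosen with earlier results of these data known. Replicate numbers paired the samples weakly at most. Deviations of equally numbered arrays correlated at −0.065 to 0.196 over 45 pairs of groups, with a median of 0.024 and 6 of them above 0.1. On day 1 the Prdm14 line correlated at 0.083 with the parental, 0.163 with the Tfap2c, 0.14 with the Blimp1 and −0.018 with the 3-factor line. Of 291 called genes with another bright probe set, 255 had the same sign at all of them and 36 did not.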

Additional observations from a re-analysis of the deposited data

Results flagged for a closer look

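The difference between the lines on day 1 differed from that in EpiLCs in 272 genes upward and 364 downward, by the interaction term of the limma fit. Large upward shifts among the named genes were those of Tcl1 (4.86), Tfap2c (4.85), Epas1 (4.65), Nr0b1 (4.16), Dppa3 (3.87) and Bnc2 (3.84). Large downward shifts were those of Nt5e (−4.39), Pim2 (−4.36), Hs6st2 (−3.93), Pcdh8 (−3.93), Podxl (−3.91) and Lzts1 (−3.76). Shifts of Lrrc31 (4.23), Rusc2 (4.06), Wnt8a (−4.26) and Fgf14 (−3.88) are approximate, because their means lay below 3.95 in both lines as EpiLCs and in 1 line on day 1. With values raised to 3.95 their day 1 differences were 1.31, 1.51, −2.20 and −1.28. Rusc2 read 0.94 and 3.74 in parental and 5.62 and 5.29 in Prdm14-line aggregates, so its shift (adjusted p = 0.0441) rests on parental arrays far from each other; its day 1 call was lost without either Prdm14-line replicate or parental replicate 1. Fgf14, a member of the FGF homologous factors, read 5.07 and 5.38 against 2.56 and 2.17 on day 1 and had EpiLC means of 2.12 and 3.14.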

How the results depend on the processing

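The day 1 counts kept within 1.5 times of 305 higher and 446 lower genes under all 14 alternatives, from 564 called in total when differences had to exceed 0.5 in the test itself (limma's treat) to 788 without the filter on low values. Of the 125 named genes called on day 1, 97 were called under all 14 alternatives, 28 lost the call under some, and none reversed. Klf4 and Lhx5 lost it under 6, and Aldh1a2, Aldh1a3 and Rusc2 under 5; the cause was not tested. With the mean of all probe sets, Fgfr1, Klf5, Rarg, Marveld3, Cdh2, Fgf4 and Kit were among those not called. With values under 3.95 raised to that level, an alternative chosen after seeing the data, 648 genes were called, 647 of them in common. The replicate block gave 754 calls on day 1, 747 in common, and 285 higher and 368 lower for the change from EpiLCs; for EpiLCs it gave 4 lower genes against 2. Chosen after seeing the data, the block was also run against the other lines on day 1, with 916 calls in place of 914 against the Blimp1, 153 in place of 144 against the 3-factor and 824 in place of 817 against the Tfap2c line, and it changed the call of no named gene. Leaving out single replicates there gave 863 to 934, 116 to 181 and 785 to 825 calls. The lower EpiLC count was 4 with a trended prior and 0 with only the arrays compared, which leaves fewer samples, and leaving out single replicates gave 2 to 3. The higher EpiLC count, 0 in the fit reported, was 1 with arrays centred on their medians, and 0 to 11 without single replicates, with 2 without Prdm14-line EpiLC replicate 2 and 11 without parental EpiLC replicate 1. The change from EpiLCs fell from 272 to 142 higher and from 364 to 233 lower genes under treat, which asks for more by construction. Centring and quantile normalization moved the median of all genes by less than 0.1. Leaving out 1 array leaves a group of 1, whose spread is taken from the rest of the fit. Precision is limited by 2 arrays per group, 1 clone per line and readings near background, which make sizes approximate in 76 higher and 94 lower genes.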
